A study of Mus musculus with 78 samples.

Results

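Livers of 6-month-old male UM-HET3 mice that had received 17-alpha-estradiol at 14.4 ppm for 2 months were compared with livers of untreated control males of the same age and stock. The comparison held 6 of the 78 libraries in the series, 3 treated and 3 control, and covered every expressed gene. UM-HET3 mice are the genetically heterogeneous offspring of a cross of inbred strains, so animals of a group are not genetically alike. Females of the same stock and age (3 with 17-alpha-estradiol at 14.4 ppm and 3 controls) were used to show where the treated males differed. So were males given acarbose (1000 ppm), rapamycin (42 ppm) or Protandim (1200 ppm) for 2 months, 9 libraries in all. Males under 40% calorie restriction are given as a further level. The fit of 6-month mice held 12 groups and 36 libraries. It also included females given acarbose, rapamycin or Protandim, or under calorie restriction. Lists of sex-biased genes, other than textbook ones, came from control mice of 12 months. Their fit held 24 libraries in 8 groups. Beside controls, these were both sexes with acarbose, calorie restriction or a lower rapamycin dose, each for longer than in 6-month mice. All mice ate Purina 5LG6 chow, with the compound mixed in for drug groups. Control livers came from littermates, and libraries were poly(A)-selected and read as paired ends of 100 bases.

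17-alpha-estradiol is the stereoisomer of 17-beta-estradiol, the main circulating estrogen, and binds the classical estrogen receptors less strongly. In lifespan trials with this stock it lengthened life in males and not in females. The mouse liver expresses estrogen receptor alpha (Esr1) and is strongly dimorphic between the sexes: the pulsatile male pattern of growth hormone acts through its receptor (Ghr) and Stat5b to keep male genes such as those of the major urinary proteins high and female genes such as several Cyp2b and Cyp3a enzymes low. Sex steroids shape that pattern, and estrogen also acts on hepatic lipoprotein genes.

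Treated libraries held 21876573 to 24942705 assigned counts and control libraries 25888571 to 29427028. Treated male 2 stood apart, since 12 kidney markers summed to 39977 counts in it and to 60 and 40 counts in treated males 1 and 3, against 52, 30 and 27 counts in control males. Lrp2 alone gave 45, 16 and 11 of the control counts. Of the 12 markers, 2 and 3 were at 0 in treated males 1 and 3, against 10, 8 and 5 in control males and 2 in control female 2. Kap had 11 and 6 counts in treated males 1 and 3 and 0 in every control male. Traces of kidney RNA in treated males 1 and 3 were not tested. Slc34a1, a phosphate transporter of the proximal tubule, was at 344 CPM (counts scaled to the library's total) in it and at 0.183 CPM or less in the other 5. A gene was therefore set aside where its CPM plus 0.2 in that library was at least 2 times the highest of the other 5, unless treated males 1 and 3 were both at least 1.5 times the highest control. This removed 611 genes, 345 of which would have been tested, with 0.773% of the counts of treated male 2 and at most 0.088% of those of any other library. Just inside the limit were Agtrap, Prkd1 and Rtl6, and just outside it Esrrb, Npnt and Tspan5. The exception, which rests on the difference between treated and control males itself, kept Chrna4, Bnc2, Slc26a4 and Slc8a1 for testing. Of the 12 kidney markers, 11 were set aside. Kap met the exception, so the exception can keep a kidney gene, but none of the 12 was tested. Adrenal markers summed to 312 counts in treated male 2 and to 128 in control male 3, against 48 or fewer in the other 4, and 4 of 5 were set aside. Onecut1, a hepatocyte transcription factor, was also set aside. The liver label held: albumin (Alb) had 46074, 42799.5 and 47314 CPM in treated males, against 45082, 57815 and 60746 CPM in control males, on CPM scaled by TMM as for all single genes from here on.

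The treatment left most of the measured male liver transcriptome without a detected difference. Of 14471 genes tested, 5 differed from controls at an adjusted p under 0.05 (0.0346% of genes), all higher in treated males: Apoc2, Isyna1, Mmd2, Bnc2 and Galc. No gene was called lower in this fit of 12 groups, whereas a fit of the compared groups alone called 12 genes, 6 higher and 6 lower. With no exception to the rule for setting genes aside, an alternative chosen after seeing the data, Bnc2 was not tested, Galc missed the threshold (adjusted p = 0.0535) and 3 genes passed. At an unadjusted p under 0.05, 445 genes were higher (3.08%) and 490 lower (3.39%), and DESeq2 called 16 genes, 15 higher and 1 lower (0.06% of 26671 genes). The median log2 fold change of all genes was -0.01 and the median standard error of a gene 0.21. In bulk liver, fewer cells of a type and less RNA per cell cannot be told apart.

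Promoters of Apoc2, Isyna1 and Mmd2 are shown because these 3 genes were called in males, were still called without treated male 2, and were also called in females. Each window runs from 250 bases before to 50 bases after the RefSeq start of the gene, 5′ to 3′ on its own strand, on GRCm38.p6, and that start can differ from the gene ends given further on. Capitals mark GGTCA or its reverse complement TGACC, the letters of an arm of the estrogen response element.
Apoc2, chr7:19677892-19678191, minus strand: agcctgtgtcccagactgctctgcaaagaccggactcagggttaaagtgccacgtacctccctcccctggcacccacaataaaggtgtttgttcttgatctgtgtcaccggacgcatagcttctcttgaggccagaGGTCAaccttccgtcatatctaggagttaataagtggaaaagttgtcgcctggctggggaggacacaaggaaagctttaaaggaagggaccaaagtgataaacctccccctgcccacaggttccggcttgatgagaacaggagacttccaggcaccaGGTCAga
Isyna1, chr8:70594231-70594530, plus strand: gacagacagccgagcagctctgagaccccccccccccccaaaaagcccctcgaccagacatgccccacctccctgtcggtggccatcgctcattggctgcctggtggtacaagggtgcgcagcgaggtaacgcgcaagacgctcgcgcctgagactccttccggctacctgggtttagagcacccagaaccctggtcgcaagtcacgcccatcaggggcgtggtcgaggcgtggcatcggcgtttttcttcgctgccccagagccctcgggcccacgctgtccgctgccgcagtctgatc
Mmd2, chr5:142608703-142609002, minus strand: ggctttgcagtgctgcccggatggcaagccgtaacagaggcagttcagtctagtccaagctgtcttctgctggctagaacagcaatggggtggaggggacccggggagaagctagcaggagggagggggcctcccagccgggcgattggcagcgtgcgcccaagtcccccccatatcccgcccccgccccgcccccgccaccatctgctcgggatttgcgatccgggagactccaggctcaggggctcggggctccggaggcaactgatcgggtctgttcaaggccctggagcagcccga
The Apoc2 window held the letters 2 times, starting at its positions 137 and 294, and the Isyna1 and Mmd2 windows held none. Of all 32851 promoter windows of the same length, 40.5% held them at least 1 time and 10.8% at least 2 times. The whole palindrome GGTCANNNTGACC was in 0.07% of windows and in none of these 3, nor in that of Galc (3 matches of the arm). A match describes letters, not a binding site.

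Apoc2 encodes apolipoprotein C-II, the cofactor that lipoprotein lipase needs to clear triglyceride from circulating particles. It is a protein-coding gene on chromosome 7 at 19671579 to 19677941 (GRCm38, minus strand). Apoc2 had 986, 932 and 1028 CPM in treated males, against 179, 184 and 171 CPM in control males. The treated libraries formed a narrow band far above a narrow control band, with no overlap. The log2 fold change was 2.46 ± 0.19 (SE, n = 3 a group, adjusted p = 1.93e-09), a 5.51-fold difference. The 30 libraries of 6 months outside the 17-alpha-estradiol groups, controls of both sexes included, held 143 to 273 CPM.

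Neighbouring genes of the same apolipoprotein cluster did not pass. Apoc4, the adjacent gene, had 381, 329 and 379 CPM in treated males, against 400.3, 594 and 471 CPM in control males (log2 fold change -0.43 ± 0.17, adjusted p = 0.700). Apoc1 differed by 0.05 ± 0.16 and Apoe, the ligand for remnant uptake, by -0.02 ± 0.20 on the log2 scale, both with overlapping groups. These neighbours were chosen by position after the Apoc2 value had been seen. In GENCODE vM21, 79.5% of the 813 exonic bases of Apoc2 also lie in exons of Gm44805, a gene model on the same strand that spans Apoc4 and Apoc2, and gene counts do not tell their transcripts apart.

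Isyna1 encodes inositol-3-phosphate synthase, which makes inositol phosphate from glucose 6-phosphate, and lies on chromosome 8 at 70594373 to 70597290 (plus strand). It had 26.6, 28.2 and 21.99 CPM in treated males, against 8.16, 7.62 and 8.67 CPM in control males. All 3 treated libraries were far above all 3 controls, by a log2 fold change of 1.65 ± 0.23 (adjusted p = 0.000365), a 3.14-fold difference. The 30 other libraries held 4.31 to 17.4 CPM, below the lowest treated male.

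Mmd2 encodes a membrane protein of the progestin and adipoQ receptor family and lies on chromosome 5 at 142562358 to 142608800 (minus strand). It had 10.5, 7.54 and 13.5 CPM in treated males, against 0.871, 0.877 and 1.52 CPM in control males. The groups were separate, by a log2 fold change of 3.26 ± 0.53 (adjusted p = 0.00613), a 9.56-fold difference. Mmd2 varied elsewhere too, and the 30 other libraries ranged from 0.364 to 9.17 CPM, so that their highest exceeded the lowest treated male.

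Bnc2 encodes a zinc-finger transcription factor (chromosome 4, 84275095 to 84675275, minus strand) and was near the limit of detection. It had 31, 95 and 19 counts in treated males, against 2, 0 and 1 counts in control males. The ratio of the summed levels, 145 counts against 3, was 54.3 (95% interval 18.2 to 267, for counting error only). Treated male 2, the library with kidney RNA, was the highest, and without it the gene did not pass (adjusted p = 0.153), with a ratio of 29.99 (50 counts against 3, 95% interval 9.69 to 150.3 on the same terms). Bnc2 was kept by the exception described above and passed the filter on low counts through the 17-alpha-estradiol groups: over the 30 other libraries it failed that filter, with at most 0.421 CPM. Its place among the called genes is therefore a description. Its mean level lay below the floor set for naming genes, and it is named because only 5 genes were called.

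Galc encodes galactosylceramidase, a lysosomal enzyme that removes galactose from glycosphingolipids (chromosome 12, 98202294 to 98259459, minus strand). It had 14.6, 22.8 and 16.1 CPM in treated males, against 7.65, 9.57 and 9.65 CPM in control males. Treated male 2 was again the highest, though treated males 1 and 3 also lay above every control. The log2 fold change was 0.99 ± 0.19 (adjusted p = 0.0460) with all libraries and 0.78 without treated male 2, where it did not pass (adjusted p = 1). Galc was at 5.17 to 10.5 CPM in the 30 other libraries.

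**Figure D1:**
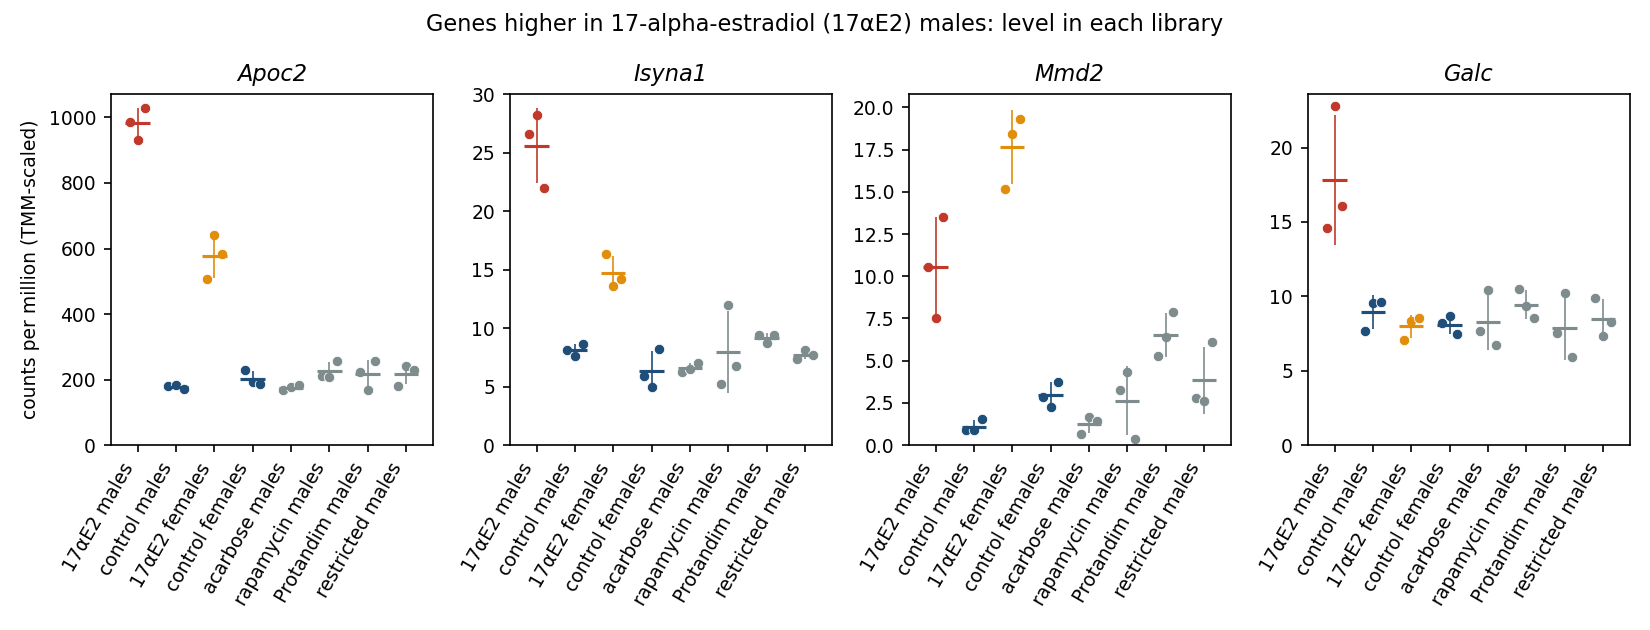
TMM-scaled CPM of Apoc2, Isyna1, Mmd2 and Galc (vertical axes from 0) in each 6-month library of 8 groups, where points are libraries, horizontal bars group means and thin vertical lines ± SD (n = 3). The 17-alpha-estradiol (17αE2) males lie above every control male in all 4 panels, for Apoc2 at 932 to 1028 against 171 to 184, and the 17αE2 females lie above control females for all but Galc.

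Without treated male 2, 3 genes passed (0.0202% of 14828 tested): Apoc2, Isyna1 and Mmd2. Apoc2 and Isyna1 passed in each of the 17 alternative fits that were run. Mmd2 passed in 14 and missed without control male 1, without control male 2 and with males alone in the fit (adjusted p = 0.153, 0.162 and 0.188).

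Just past the threshold stood Spp1, which encodes the secreted phosphoprotein osteopontin. It had 13.3, 22.3 and 17.1 CPM in treated males, against 8.997, 9.21 and 8.39 CPM in control males, without overlap and highest in treated male 2 (log2 fold change 0.99 ± 0.20, adjusted p = 0.0549; 0.78 without that library). Rassf1, a Ras-association tumour suppressor, had 5.65, 5.65 and 5.17 CPM in treated males, against 3.19, 3.07 and 2.71 CPM in control males (log2 fold change 0.88 ± 0.20, adjusted p = 0.249). Here the 3 treated libraries were close together and the groups did not overlap. DESeq2 called both of these genes, and among the others it called were Nabp1, Tesmin, Bicc1, Rgs3, Chrna4, 1810013L24Rik and Cyp2c39 higher and Arrdc2 lower.

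Of these, Nabp1, Tesmin, Bicc1, Rgs3, Chrna4 and 1810013L24Rik had their highest level in treated male 2, and the part of kidney RNA in them was not tested. Arrdc2, an arrestin-domain gene, had 12.5, 10.8 and 14.5 CPM in treated males, against 22.8, 96.8 and 20.3 CPM in control males. All 3 treated libraries were lower than the controls, with control male 2 far above the rest (log2 fold change -1.88 ± 0.46, adjusted p = 0.371 in edgeR and 0.0215 in DESeq2).

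In females the same dose gave 445 called genes (3.08%), 218 higher (1.51%) and 227 lower (1.57%), and 4 of them were also called in males: Apoc2, Isyna1, Mmd2 and Bnc2. Apoc2 had 508, 641 and 584 CPM in treated females, against 229, 191 and 188 CPM in control females (log2 fold change 1.51, adjusted p = 3.88e-05). Isyna1 had 16.4, 13.6 and 14.2 CPM in treated females, against 5.90, 4.93 and 8.25 CPM in control females (1.21, adjusted p = 0.00651). Treated and control females did not overlap for either gene. Mmd2 had 15.2, 18.4 and 19.3 CPM in treated females, against 2.87, 2.28 and 3.75 CPM in control females (2.57, adjusted p = 0.00773), again without overlap. Bnc2 had 18, 13 and 30 counts in treated females, against 2, 0 and 3 counts in control females, a ratio of 12.0 (95% interval 4.86 to 38.2, for counting error only). Bnc2 passed the filter on low counts only through the 17-alpha-estradiol groups, so its call in females is a description too.

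For Apoc2 the treated males lay above all treated females, but the male minus female difference in log2 fold change, 0.95 ± 0.25, did not pass (adjusted p = 0.138). Galc had 7.10, 8.32 and 8.52 CPM in treated females, against 8.19, 8.67 and 7.44 CPM in control females, with overlapping groups. The gap of 1.01 ± 0.27 between its male and female effects did not pass either (adjusted p = 0.141), so the data do not show that Galc responded differently in the sexes.

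Genes called in females were centred near 0 in males. The 218 genes higher in treated females had a median log2 fold change of 0.01 in males. At an unadjusted p under 0.05, 17 were higher and 7 lower (3.08% and 3.39% of all genes). Every treated male was above every control male for 24 of them (11%) and below for 7 (3.21%). The 227 genes lower in treated females had a median of -0.04 in males, with 63.9% below 0 (51.1% of all genes). At the same unadjusted level, 1 was higher and 6 lower. Every treated male was below every control male for 20 of them (8.81%) and above for 5 (2.2%). In both lists, more genes were separate from controls in the female direction than in the other. Of all genes, 6.12% had every treated male above and 6.77% every treated male below every control male.

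The effects themselves differed between the sexes, by the test of the difference, for 7 genes (0.0484%): Picalm and Paip1 with the higher effect in males, and Tk1, Mum1, Plekhg6, R3hdml and Tff3 with the lower. Picalm, a clathrin adaptor of endocytosis, had 66.4, 75.9 and 80.9 CPM in treated males, against 67.9, 65.9 and 61.3 CPM in control males. In females Picalm had 61.1, 54.2 and 59.7 CPM in treated females, against 82.2, 83.2 and 90.3 CPM in control females. The male groups overlapped and the female groups did not; the male effect exceeded the female one by 0.74 ± 0.13 (adjusted p = 0.0318). Paip1, a partner of poly(A)-binding protein in translation, had 46.7, 45.2 and 46.01 CPM in treated males, against 45.3, 48.3 and 45.9 CPM in control males. Paip1 had 38.9, 39.4 and 38.8 CPM in treated females, against 57.6, 59.99 and 55.02 CPM in control females, a difference between the sexes of 0.54 ± 0.10 (adjusted p = 0.0318) with overlapping males and separate females.

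Tk1, the thymidine kinase of DNA synthesis, had 25.7, 23.98 and 29.5 CPM in treated males, against 32.8, 37.6 and 40.2 CPM in control males. In females the direction was opposite, with 32.8, 34.4 and 33.9 CPM in treated females, against 9.67, 16.3 and 11.8 CPM in control females. Neither sex overlapped with its controls, and the male minus female difference was -1.91 ± 0.35 (adjusted p = 0.0318), while the male difference alone, -0.48 ± 0.24, did not pass.

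Tff3 encodes a trefoil peptide of mucous epithelia and is estrogen-induced in human breast cancer cells. It had 4.98, 2.81 and 4.31 CPM in treated males, against 0.218, 0.917 and 2.30 CPM in control males, without overlap, and its male log2 fold change of 1.802 ± 0.65 did not pass (adjusted p = 0.644). In females it had 115, 413 and 262 counts in treated livers, against 1, 0 and 1 counts in control livers, a ratio of 387 (95% interval 107 to 3205, for counting error only). The male ratio, 289 counts against 97, was 3.35 (2.65 to 4.26 on the same terms). R3hdml, a secreted CAP-domain gene, had 8, 9 and 3 counts in treated males, against 9, 30 and 86 counts in control males, a ratio of 0.18 (0.106 to 0.29). The male groups overlapped, and without control male 3 the ratio was 0.37 (0.204 to 0.649). In females R3hdml had 44, 32 and 30 counts in treated livers, against 3, 3 and 8 counts in control livers, a ratio of 7.43 (4.24 to 14.0). Leaving out 1 library at a time moved the number of genes with different effects between 0 and 42. It was 0 without treated male 2, with 1267 genes at an unadjusted p under 0.05.

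**Figure D2:**
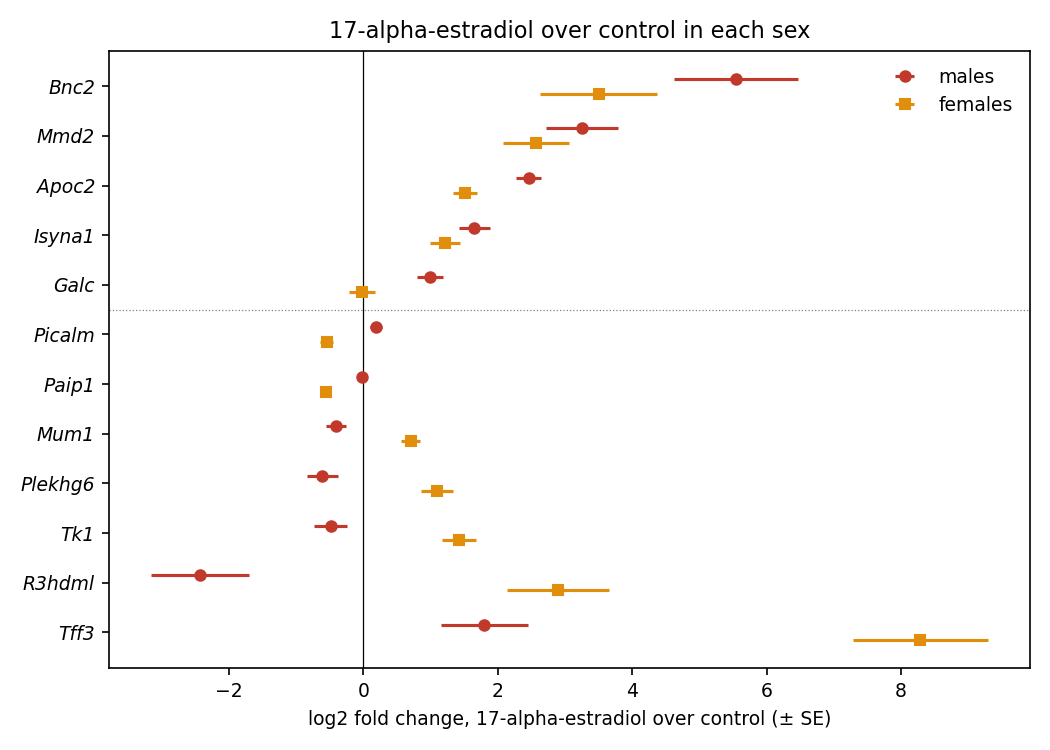
Log2 fold change of 17-alpha-estradiol over control (horizontal axis, ± SE) in males (circles) and females (squares), above the dotted line for the 5 genes called in males and below it for the 7 genes whose effects differed between the sexes. Apoc2, Isyna1, Mmd2 and Bnc2 lie right of 0 in both sexes, while Galc lies at 0.99 in males and -0.02 in females. Bnc2 passed the filter on low counts only through the 17-alpha-estradiol groups.

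Set against the 9 males given acarbose, rapamycin or Protandim, a comparison without control libraries, 36 genes differed in 17-alpha-estradiol males (0.249%), 33 of them higher. Apoc2 (log2 difference 2.26 ± 0.13), Isyna1 (1.71 ± 0.17), Mmd2 (1.92 ± 0.36) and Galc (1.07 ± 0.15) were among the 33. Bnc2 was also among them, as a description only, since it passed the filter on low counts through the 17-alpha-estradiol groups. RNA of other tissues was present in this set: adrenal markers summed to 1737 CPM in rapamycin male 2, against 1.12 to 1.68 CPM in the 8 others, and pancreas markers to 207 CPM in acarbose male 3, against 11.8 to 20.9 CPM. Osbpl3, an oxysterol-binding protein relative, had 41.2, 35.8 and 42.9 CPM in 17-alpha-estradiol males, against 8.48 to 30.2 CPM (median 14.01) in the 9 others and 14.3, 10.2 and 27.8 CPM in control males. No library of either set reached the 17-alpha-estradiol males, although the difference from controls did not pass (1.195 ± 0.37, adjusted p = 0.556). Osbpl3 was also called in females (log2 fold change 1.53, adjusted p = 0.0278).

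Arhgap10, a GTPase-activating protein, had 5.16, 5.79 and 3.28 CPM in 17-alpha-estradiol males, against 0.527 to 2.55 CPM (median 1.88) in the 9 others and 1.63, 2.47 and 1.56 CPM in control males. It too was above every library of both sets and was called in females (1.70, adjusted p = 0.0217). Car5a, a mitochondrial carbonic anhydrase that feeds urea synthesis and gluconeogenesis, was 1 of the 3 lower genes, beside Tmed3 and Gm16731. Car5a had 20.02, 18.8 and 19.4 CPM in 17-alpha-estradiol males, against 26.97 to 58.2 CPM (median 41.7) in the 9 others and 32.9, 31.1 and 32.5 CPM in control males. Its treated values were below every library of both sets (log2 difference from the 9 others -1.10 ± 0.23; from controls -0.73 ± 0.26, adjusted p = 0.645). In females the log2 fold change of Car5a had the opposite sign and did not pass (0.71, adjusted p = 0.133). Without treated male 2 this comparison gave 10 genes, without rapamycin male 2 it gave 77 and without acarbose male 3 it gave 32. Osbpl3, Arhgap10 and Car5a were chosen after their values had been seen.

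Of the receptors and transducers of estrogen and growth hormone described here, none passed. Esr1 had 10.4, 22.2 and 18.3 CPM in treated males, against 17.96, 18.5 and 17.5 CPM in control males (log2 fold change -0.08 ± 0.30), with treated male 1 lowest of the 6. Ghr differed by 0.02 ± 0.16, its target Igf1 by 0.09 ± 0.15, Stat5b by 0.09 ± 0.11, the prolactin receptor Prlr by 0.01 ± 0.23 and the nuclear receptor cofactor Trim24 by 0.12 ± 0.35, all with overlapping groups.

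Of 30 tested genes of growth hormone, androgen and estrogen signalling, 2 were higher and 1 lower at an unadjusted p under 0.05. The shares of all genes were 3.08% and 3.39%, and the median log2 fold change of the 30 was -0.01. Bcl6, a repressor of female genes in male liver, swung between libraries, with 10.8, 8.56 and 43.6 CPM in treated males, against 77.1, 77.3 and 7.75 CPM in control males. Cux2, an activator of female genes, had 1.02, 3.86 and 0.949 CPM in treated males, against 0.544, 8.02 and 0.846 CPM in control males. The groups overlapped for both. Igfbp3, a carrier of Igf1, had 16.1, 27.3 and 15.7 CPM in treated males, against 11.3, 11.4 and 11.2 CPM in control males, separate from controls and highest in treated male 2 (0.81 ± 0.29, adjusted p = 0.645; 0.50 without that library). Against the 9 males given other compounds it was called higher (log2 difference 1.05 ± 0.23, adjusted p = 0.0320).

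Of 21 tested genes known as estrogen-inducible in other tissues or species, none passed against control males, and the median log2 fold change was -0.05. At an unadjusted p under 0.05, 2 were higher (Tff3 and Mfge8, beside 3.08% of all genes) and 1 lower (Rara, beside 3.39%). Against the 9 males given other compounds, 1 of the 21 was called, Tff3. It was higher (log2 difference 3.53 ± 0.50, adjusted p = 0.000276), and those 9 libraries held 0 to 0.778 CPM. Mfge8, a bridging protein for uptake of dying cells, had 11.4, 13.9 and 11.5 CPM in treated males, against 9.14, 7.78 and 9.21 CPM in control males (0.50 ± 0.20, adjusted p = 0.702), without overlap. Rara, a retinoic acid receptor, had 32.3, 24.1 and 23.5 CPM in treated males, against 29.1, 26.9 and 54.5 CPM in control males, with overlapping groups and control male 3 the highest.

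As lists, the sex-biased liver genes tested had mean levels near those of control males. Control females and control males of 12 months, whose libraries take no part in the comparison, differed in 393 of 13639 genes (2.88%), and those at least 2-fold apart gave 169 female-biased and 144 male-biased genes. Of these, 12 female-biased and 4 male-biased genes had been set aside as high only in treated male 2. They enter no value below, so the lists leave out members that were high in that treated male. The mean log2 CPM of the 157 female-biased genes tested was 1.27 ± 0.07 in treated males and 1.22 ± 0.06 in control males (SD, n = 3 each). In females it was 3.49 ± 0.23 in treated and 3.49 ± 0.04 in control livers. The mean of the 137 male-biased genes tested was 4.07 ± 0.07 in treated males and 4.13 ± 0.12 in control males, and it was 1.82 ± 0.09 in treated females and 1.56 ± 0.17 in control females. The male groups overlapped for both lists. Calorie-restricted males had 3.49 ± 0.25 for the male-biased and 1.72 ± 0.20 for the female-biased list.

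By gene, the female-biased list had a median log2 fold change of 0.07 in males, with 13 genes (8.28%, beside 6.12% of all genes) above and 9 (5.73%, beside 6.77%) below every control male. The male-biased list had a median of -0.09, with 13 (9.49%) above and 14 (10.2%) below. Galc was the 1 of the 137 male-biased genes called (0.73%, beside 0.0346% of all genes), higher in treated males, and Cyp2c39 the 1 female-biased gene called by DESeq2. Cyp2b9, a female-specific cytochrome P450, had 0.845, 0.328 and 0.517 CPM in treated males, against 1.52, 1.28 and 1.25 CPM in control males, while control females held 562 to 725 CPM and calorie-restricted males 60.99 to 239 CPM. All 3 treated males were below the control males, and both groups were far below the females. Cyp4a12a, a male-specific fatty acid hydroxylase, had 516, 386 and 384 CPM in treated males, against 551, 324 and 509 CPM in control males, with overlapping groups.

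Of textbook lists of sex-biased liver genes, the 37 male-biased genes tested had a median log2 fold change of -0.25 with 28 below 0 (75.7%, beside 51.1% of all genes), and 2 higher and 2 lower at an unadjusted p under 0.05. The 43 female-biased genes had a median of -0.05, with 2 higher and 0 lower, and a median of 0.01 without control male 2. As high only in treated male 2, 5 female-biased and 1 male-biased textbook genes had been set aside. At that unadjusted level, 3.08% of all genes were higher and 3.39% lower. Cyp2c39, a female-biased cytochrome P450, had 18.1, 106 and 152 CPM in treated males, against 14.5, 14.3 and 10.6 CPM in control males, and control females held 198 to 644 CPM. All 3 treated males were above the controls, treated male 1 narrowly. It did not pass in edgeR (2.81 ± 0.75, adjusted p = 0.472), and DESeq2 called it (adjusted p = 0.0224).

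**Figure D3:**
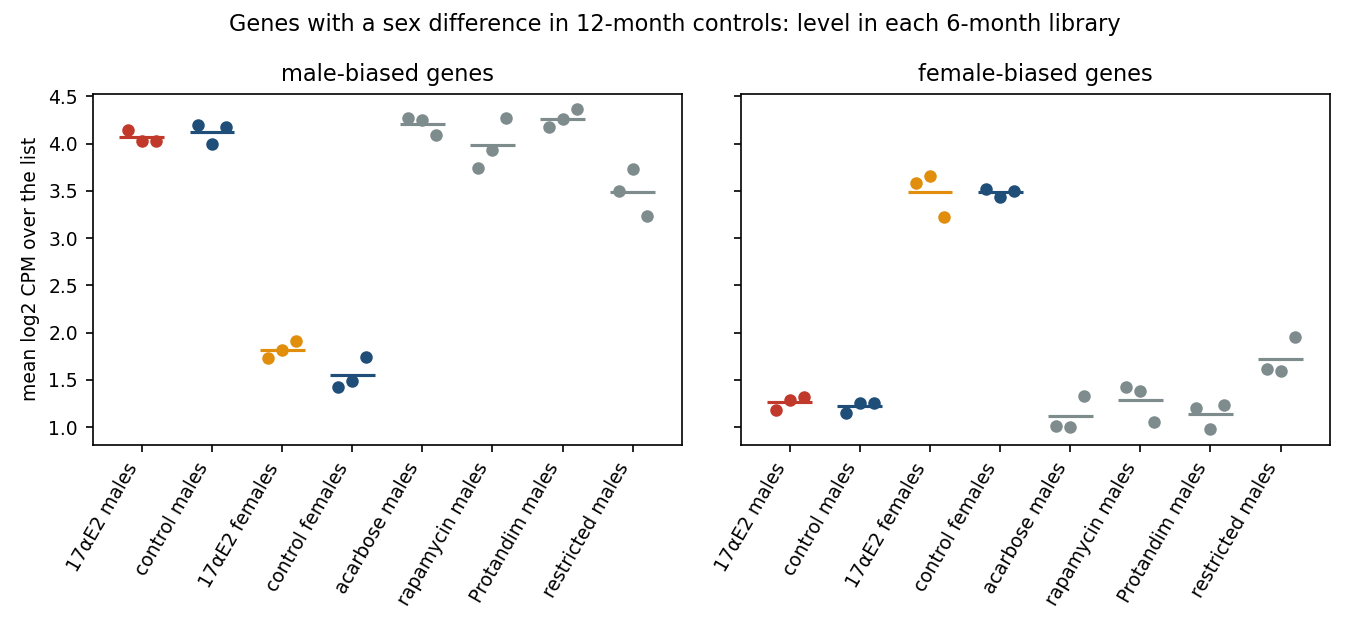
Mean log2 CPM over the 137 male-biased genes (left) and the 157 female-biased genes (right) in each 6-month library of 8 groups, where points are libraries and bars group means. 17αE2 males lie beside control males in both panels (means 4.07 and 4.13 on the left, 1.27 and 1.22 on the right), apart from both female groups.

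Chaperones and folding enzymes of the endoplasmic reticulum, where the liver folds its secreted proteins, lay below controls as a list, although none of the 22 passed alone. Of them, 21 had a log2 fold change below 0 (51.1% of all genes; median -0.47), 14 were lower at an unadjusted p under 0.05 (3.39% of all genes), and 15 (68.2%) had every treated male below every control male (6.77% of all genes). Hspa5, which encodes the chaperone BiP, had 533, 712 and 567 CPM in treated males, against 1015, 901 and 1766 CPM in control males (-1.02 ± 0.34, adjusted p = 0.595). Hyou1, another chaperone of the lumen, had 134, 164 and 119 CPM in treated males, against 261, 258 and 505 CPM in control males (-1.29 ± 0.38, adjusted p = 0.537). For both genes the groups were separate, and control male 3 was the highest library.

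Manf, a secreted stress-response factor, had 56.8, 75.4 and 58.3 CPM in treated males, against 108, 110.2 and 238 CPM in control males (-1.26 ± 0.42). Edem1, which sends misfolded glycoproteins to degradation, had 129, 119 and 121 CPM in treated males, against 160.0, 148 and 176 CPM in control males (-0.39 ± 0.13), also without overlap. Atf4, a transcription factor of the stress response, was the 1 member above 0, with 109.7, 102 and 86.1 CPM in treated males, against 78.5, 81.00 and 76.1 CPM in control males (0.34 ± 0.17). The groups were separate in the opposite direction for Atf4, and Atf6 and Trib3 overlapped.

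Over the 22 genes, mean log2 CPM was 6.76, 6.94 and 6.82 in treated males, against 7.25, 7.26 and 7.73 in control males. Leaving out any 1 of the 6 libraries left 15 to 17 genes (68.2% to 77.3%) below every control, beside 10.4% to 13.2% of all genes. The median was then -0.57 to -0.30, with -0.30 without control male 3. The same mean was 6.90 ± 0.14 in treated females and 7.13 ± 0.46 in control females. It was 7.58 ± 0.41 with acarbose, 7.09 ± 0.45 with rapamycin, 7.42 ± 0.11 with Protandim and 6.49 ± 0.10 under calorie restriction. These genes share regulators, so they are not independent measurements.

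**Figure D4:**
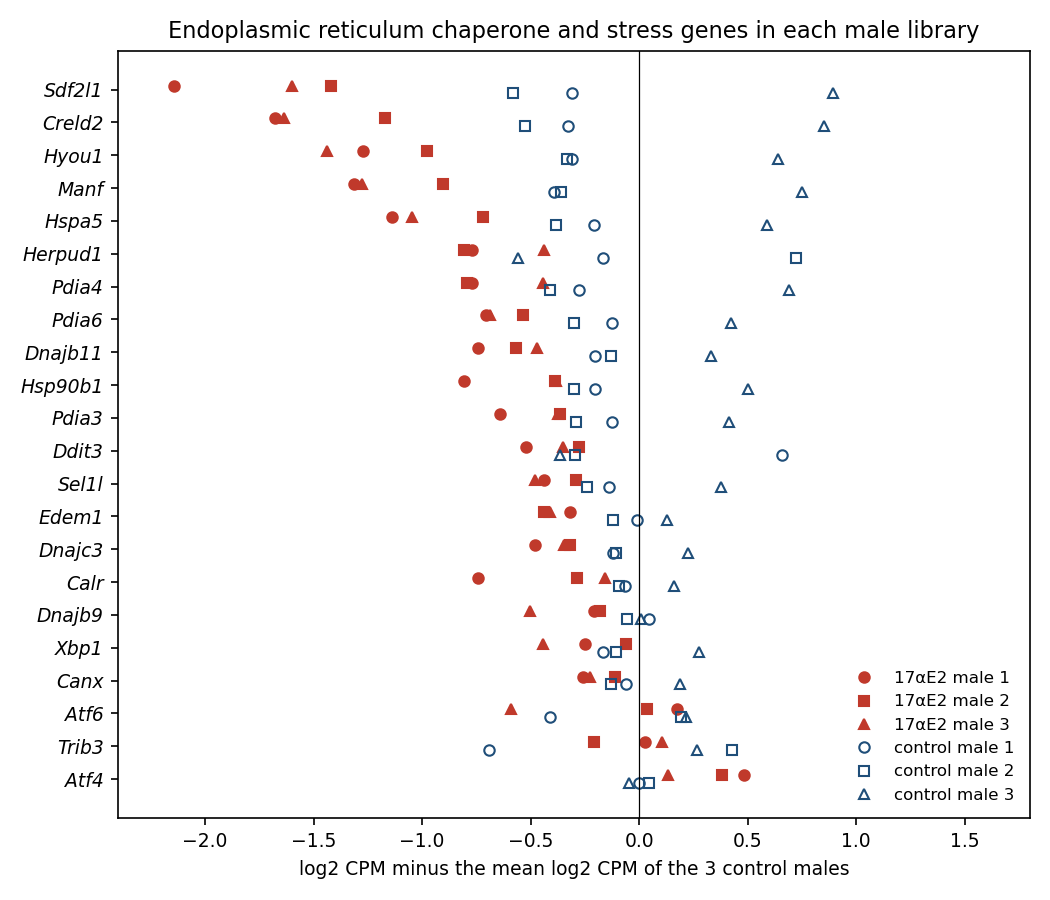
Log2 CPM of 22 endoplasmic reticulum genes in each male library minus the mean of the 3 control males (horizontal axis), with filled symbols for 17αE2 males and open symbols for control males. In 15 of 22 rows every filled symbol lies left of every open symbol, and control male 3 (open triangle) often lies farthest right.

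Major urinary proteins, male-enriched carriers of pheromones made in the liver, had log2 fold changes below 0 in 17 of 19 tested genes (89.5%, beside 51.1% of all genes), but unevenly. None passed, 6 were lower at an unadjusted p under 0.05 (31.6%, beside 3.39%), 5 (26.3%, beside 6.77%) had every treated male below every control male, and the median log2 fold change was -0.70. Mean log2 CPM was 6.98, 6.86 and 6.83 in treated males, against 8.92, 7.17 and 8.37 in control males, so control male 2 lay near the treated males. Mup11 had 335, 312 and 276 CPM in treated males, against 1306, 461 and 1249 CPM in control males (-1.71 ± 0.58, adjusted p = 0.623), and Mup12 had 1263, 1206 and 1578 CPM in treated males, against 277, 1414 and 275 CPM in control males, in the other direction with overlap. Without control male 2, 11 of 19 (57.9%) were below every control (12.4% of all genes), and without control male 1 the median was -0.28. Reads of these near-identical paralogs can be split between members, so single values are uncertain. The mean was 6.89 ± 0.08 with 17-alpha-estradiol, 7.01 ± 0.39 with acarbose, 7.11 ± 0.40 with rapamycin, 8.97 ± 0.79 with Protandim and 5.41 ± 0.60 under calorie restriction, against 8.15 ± 0.90 in control males (SD, n = 3 each).

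Interferon-induced genes, which mark antiviral signalling, had log2 fold changes above 0 in 27 of 30 (48.8% of all genes; median 0.44). None passed, and 3 were higher at an unadjusted p under 0.05 (Xaf1, Ifi44 and Gbp2), beside 3.08% of all genes. Only Gbp2 (3.33% of the list, beside 6.12% of all genes) had every treated male above every control male. Mean log2 CPM was 2.28, 2.97 and 3.03 in treated males, against 2.57, 1.43 and 2.59 in control males. Treated male 1 lay among the controls and control male 2 far below the rest. Without treated male 1, 18 of 30 (60%) were above every control (12.2% of all genes), and without control male 2 the median was 0.17. Macrophage markers summed to 103, 129 and 122 CPM in treated males, against 103, 72.6 and 117 CPM in control males, also lowest in control male 2, with 0 of 5 markers at 0 in any library, and their part in the result was not tested.

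Acute phase and complement genes were below 0 in 25 of 30 (83.3%, beside 51.1% of all genes; median -0.15), with 6 lower at an unadjusted p under 0.05 (20%, beside 3.39%) and none called. C9, the pore-forming complement component, had 402, 367 and 342 CPM in treated males, against 562, 518 and 584 CPM in control males (-0.58 ± 0.17, adjusted p = 0.504), without overlap. The metallothionein gene Mt2 had 16.2, 17.3 and 26.2 CPM in treated males, against 32.1, 73.2 and 114 CPM in control males (-1.87 ± 0.62, adjusted p = 0.595), separate from controls that themselves spread widely.

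No gene of the metabolic lists was called in males, and their medians lay between -0.17 and 0.09. For the counts below, 3.08% of all genes were higher and 3.39% lower at an unadjusted p under 0.05. Cholesterol synthesis had a median log2 fold change of -0.02 over 25 genes in males, with none at an unadjusted p under 0.05 in either direction, and 0.94 in females. Fatty acid oxidation had a median of -0.13 over 34 genes in males, 28 of them below 0 (82.4%, beside 51.1% of all genes) and 2 lower at an unadjusted p under 0.05, and -0.41 in females. Acads, the short-chain acyl-CoA dehydrogenase, had 149.9, 145 and 146 CPM in treated males, against 209, 219.9 and 207 CPM in control males (-0.53 ± 0.18, adjusted p = 0.595), with tight and separate groups. Lipogenesis (median -0.10, 31 genes), bile acid synthesis and transport (-0.08, 24), gluconeogenesis (0.09, 23), the amino acid and urea cycle (0.03, 29), methionine and one-carbon metabolism (0.09, 20), drug metabolism (-0.13, 32), steroid conjugation and hydroxylation (-0.05, 44) and the clock (-0.17, 20) held 0 to 3 genes each at an unadjusted p under 0.05.

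Scd1, the desaturase that makes oleate, had 5879.7, 3372 and 3590.5 CPM in treated males, against 879, 629 and 3663 CPM in control males, a wide spread with overlap at control male 3 (1.31 ± 0.83, adjusted p = 0.880). Over the 18 pathway lists, 467 different genes were tested, none was called by edgeR, 1 was called by DESeq2, and 49 (10.5%) had an unadjusted p under 0.05, beside 6.46% of all genes.

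**Figure D5:**
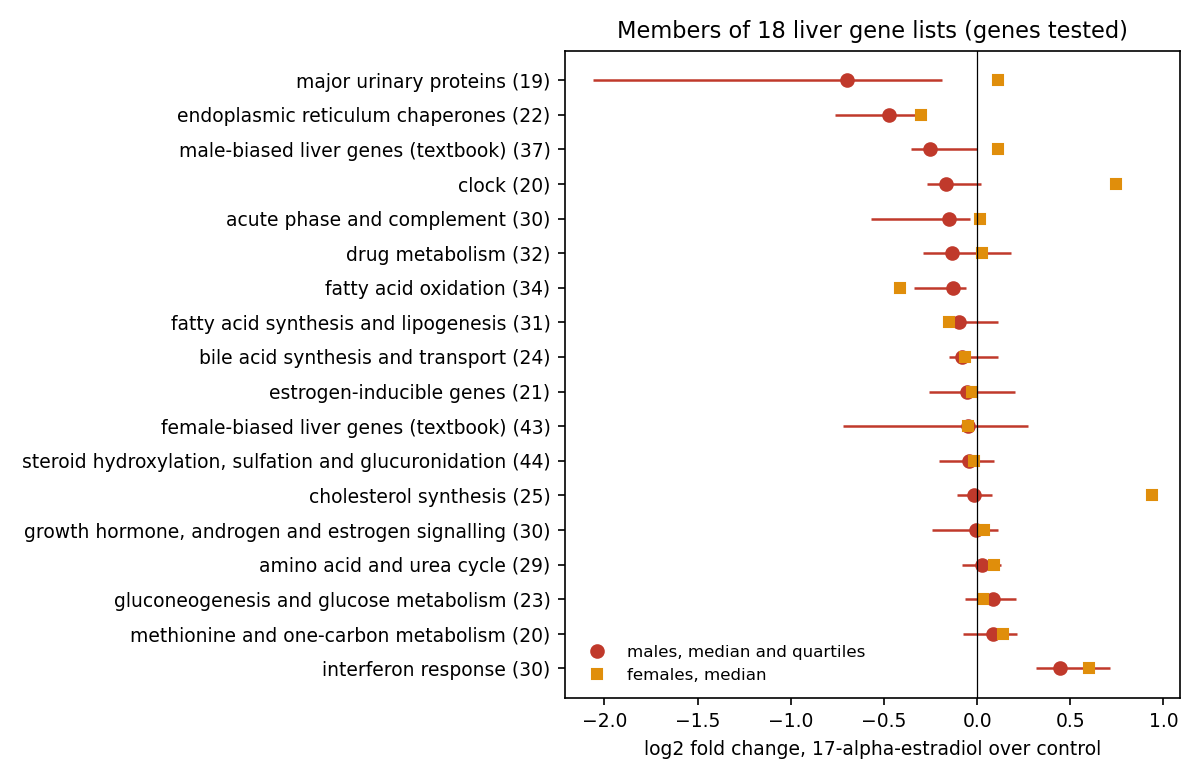
Log2 fold change of 17-alpha-estradiol over control (horizontal axis) for 18 gene lists, with the number of genes tested in brackets, where circles and lines are the median and quartiles in males and squares the median in females. Major urinary proteins (-0.70) and endoplasmic reticulum chaperones (-0.47) lie farthest left in males and interferon response (0.44) farthest right, while cholesterol synthesis (0.94) and the clock (0.75) lie to the right in females and left of 0 in males.

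Summed markers of other cells of the liver overlapped between the groups. Endothelial markers summed to 190, 152 and 164 CPM in treated males, against 190, 145 and 98.8 CPM in control males, and stellate cell markers to 140, 176 and 181 CPM in treated males, against 167, 105 and 138 CPM in control males. Bile duct markers summed to 15.6, 11.4 and 8.00 CPM in treated males, against 16.6, 11.8 and 9.07 CPM in control males. Without Krt7, which was set aside, the bile duct sums were 14.9, 7.62 and 7.48 CPM in treated males, against 16.1, 11.2 and 8.43 CPM in control males. Single markers above every control, beside 6.12% of all genes, were 1 of 5 macrophage (Adgre1), 1 of 4 endothelial (Lyve1) and 1 of 3 bile duct markers tested (Epcam). Lyve1 and Epcam were highest in treated male 2. Sox9, also of the bile duct list, went the other way with overlap. It had 9.43, 3.50 and 5.95 CPM in treated males, against 14.3, 9.85 and 7.04 CPM in control males. Epcam, an epithelial adhesion molecule, had 2.14, 2.81 and 0.992 CPM in treated males, against 0.580, 0.798 and 0.812 CPM in control males (1.44 ± 0.36, adjusted p = 0.371). Lyve1, a hyaluronan receptor of sinusoidal endothelium, had 3.07, 6.09 and 5.56 CPM in treated males, against 2.90, 2.95 and 2.23 CPM in control males (0.87 ± 0.56, adjusted p = 0.881). Their part in the results was not tested.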

How the data were processed

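Liver RNA was measured in 3 libraries a group, called biological replicates by the labels. The p-values rest on the spread between animals within groups, taken over all groups of a fit and not from the compared libraries alone. Per the submitters' processing notes, reads were handled with bcl2fastq 1.8.4, Trimmomatic 0.32, STAR 2.5.2b and featureCounts 1.5 on GRCm38. The annotation and strand setting are not given in the sources used here. The authors deposited raw counts per gene (43629 genes, 14660 at 0 in every library).

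Counts were tested with edgeR 4.0.16 (quasi-likelihood, robust, TMM, its default filter on low counts) in R 4.3.3, with 1 coefficient for each of 12 groups over all 36 libraries of 6 months and Benjamini-Hochberg adjustment over all genes tested. Genes high only in treated male 2 were set aside first. The 12-month sex difference was fitted in 24 libraries. DESeq2 1.42.0 was an alternative, as were other filters, scalings, set-aside rules, sample sets and leaving out each library. The script was tested on simulated data. Ratios of low counts carry exact 95% intervals. Named genes were up to 15 a direction by fold among those called, with a mean log2 CPM of at least 1, all treated libraries on 1 side and at least 0.5 of the log2 change kept without treated male 2; up to 8 a direction for the male minus female difference; up to 4 a list by p; and fixed receptors. Other genes were named after their values were seen, and some genes are not reported here. The members and lists were chosen with earlier results of these data known.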

Additional observations from a re-analysis of the deposited data

Results flagged for a closer look

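The effect of 17-alpha-estradiol differed between males and females, by the test of the difference, in 7 genes. The male minus female difference in log2 fold change was 0.741 for Picalm and 0.542 for Paip1, and -1.91 for Tk1, -1.11 for Mum1, -1.70 for Plekhg6, -5.32 for R3hdml and -6.49 for Tff3. For Tff3 and R3hdml, which had 2 and 14 counts in all control females, the fitted size depends on the prior count. Plekhg6 had 243, 258 and 239 counts in treated males, against 289, 232 and 789 counts in control males. Mum1 had 198, 217 and 213 counts in treated males, against 289, 225 and 438 counts in control males. Control male 3 was the highest for both, and without that library no gene passed the test of the difference.

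Kidney markers, which lie outside the liver comparison, summed to 39977 counts in 17-alpha-estradiol male 2, against 52, 30 and 27 counts in control males.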

How the results depend on the processing

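The count of 5 genes that differed between treated and control males was 16 with DESeq2, 12 with the compared groups alone in the fit (6 higher, 6 lower), 9 with no gene set aside, 3 with genes set aside at 1.5-fold and no exception, and 3 without the 6 libraries that hold RNA of another tissue. Leaving out 1 library at a time gave 2 to 7, with 2 without control male 1 or control male 2 and 3 without treated male 2 or control male 3. The 7 genes that differed between the sexes in effect became 0 with no filter on low counts (1662 at an unadjusted p under 0.05), 117 with DESeq2, 4 with the compared groups alone and 0 without the 6 libraries (1284 at an unadjusted p under 0.05). They ranged from 0 to 42 over single libraries, with 42 without control male 2, 12 without control male 1, and 0 without treated male 2, treated male 3, control male 3, treated female 3 or control female 1 (1039 to 1466 at an unadjusted p under 0.05). The 36 genes against other treated males became 83 with DESeq2, 11 with the compared groups alone, 185 with no gene set aside and 6 without the 6 libraries, and ranged from 10 (without treated male 2) to 77 (without rapamycin male 2). The 393 genes of the 12-month sex difference became 613 with DESeq2, and 184 to 280 over single libraries. Setting genes aside against all 35 other libraries of 6 months, an alternative chosen after seeing the data, gave 5, 8 and 45 for the first 3 counts, and setting them aside at 2-fold with no exception, chosen likewise, gave 3, 7 and 33. The causes were not tested. No called gene changed direction in these fits, but the median of the textbook female-biased list, -0.05, was 0.01 without control male 2 and -0.27 without control male 3.

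Deviations of same-numbered treated and control males correlated at 0.036, -0.109 and -0.190, and those of differently numbered ones at -0.083 to 0.184. Deviations within a group of 3 are bound to each other, so these values cannot decide whether replicate numbers pair the libraries. A fit with the replicate number as a block gave 5 genes in males, 5 for the difference between the sexes, 36 against other treated males and 203 for the 12-month sex difference. At this depth and with 3 libraries a group, the median standard error of a log2 fold change was 0.21, and at low counts single libraries decide.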
